A study of Mus musculus with 14 samples.

Results

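The genes described here are 42 mouse genes of DNA double-strand break repair, chosen by name from the homologous recombination, Fanconi and end joining pathways, out of 21292 protein-coding genes listed in the tables. All 42 were found. Members were chosen by name and role, not by their variant counts, though earlier results of these data were known. For each gene and tumour the count of variants was the maximum over the gene's protein-coding transcripts, and a gene that a tumour's table does not list was taken as 0. Protein-altering variants are those that the annotation program snpEff rated HIGH (a frameshift, a stop gained or a lost splice site) or MODERATE (mostly missense and in-frame changes). LOW variants are mostly synonymous, and MODIFIER variants are mostly intronic or flanking.

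The exomes of 12 mammary tumours were sequenced, 3 in each of 4 groups. All 12 grew from Balb/c mammary fragments without p53, taken from p53null donors of 8 to 10 weeks. Stiff tumours (A7, A8 and A9) grew in wild-type female hosts of 3 to 4 weeks, in cleared fat pads that held a gel of collagen 1 with 20% basement membrane extract, the collagen crosslinked with 500 mM L-ribose for 10 to 14 days. Soft tumours (A1, A2 and A3) grew in the same gel with 0 mM L-ribose. KO host tumours (B4, B5 and B6) grew without a gel in LysM-Cre mice with a knockout of Gpx4, a peroxidase that removes lipid peroxides, and WT host tumours (B1, B2 and B3) in LysM-Cre mice wild-type for Gpx4. LysM-Cre is active in myeloid cells, so the knockout lies in host cells and not in the implanted tissue. The host experiment also gave each tumour p53null tissue, so no group keeps p53 in its tumour cells. Tumours were taken when their largest diameter reached 2 cm. The study asked how tissue tension, oxidative stress and DNA damage relate to each other.

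Double-strand breaks are mended by homologous recombination, which copies an intact sister strand, or by end joining, which ligates the broken ends with little or no template. In recombination the MRE11, RAD50 and NBN complex and RBBP8 (CtIP) trim the ends, and BRCA1, PALB2 and BRCA2 then act on the exposed strand with the help of accessory proteins. The Fanconi proteins unhook crosslinks between strands: a core complex marks FANCD2 and FANCI with ubiquitin, and nucleases and recombination finish the repair. Inherited loss of BRCA1, BRCA2 or PALB2 predisposes people to breast cancer.

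Between 8316 and 16536 protein-altering variants were counted per tumour over all protein-coding genes, with group members A9 and B5 at the low end of their groups. Those 2 tumours also had 19.9 and 23.1 frameshifts per 100 missense variants, against 27.7 to 30.8 in the other 10. The labels state an effective depth above 50x and 6 Gb of sequence for each exome. The tables give no read depth, so the depth reached behind each count is unknown. The counts may hold inherited strain differences from the reference genome and false calls besides somatic changes, and a variant in tumour cells cannot be told apart from one in host cells of the same bulk tumour. Exome DNA carries no expression, so the labelled tissue could not be checked against marker genes. The labels call each tumour a separate sample and say nothing of separate donors, so p-values reflect only how much these tumours vary.

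A protein-altering variant was listed in at least 1 tumour for 32 of the 42 genes (76.2%), against 55.5% of all protein-coding genes. Per gene and tumour the direction was the other way, with 0.325 protein-altering variants in the 42 genes, against 0.542 over all genes. Neither figure was adjusted for gene length. No protein-altering variant was listed for the other 10, which were Mre11a, Rad51b, Rad51c, Xrcc2, Dmc1, Fance, Fanci, Recql, Xrcc5 and Lig4. They include the nuclease of the end-trimming complex (Mre11a), a Ku subunit that caps broken ends (Xrcc5) and the ligase of classical end joining (Lig4). Gene length was not given in the sources used here, so counts were compared between tumours and between kinds of variant, and genes were not ranked against each other by count. Of the 32 genes, 10 had a protein-altering variant in 1 tumour, 16 in 2 to 5 tumours, 5 in 6 to 11 tumours (Fanca, Fancd2, Fancl, Brip1 and Wrn) and 1 in all 12 (Nbn). Among all genes 7.48% had a protein-altering variant in all 12 tumours.

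**Figure D1:**
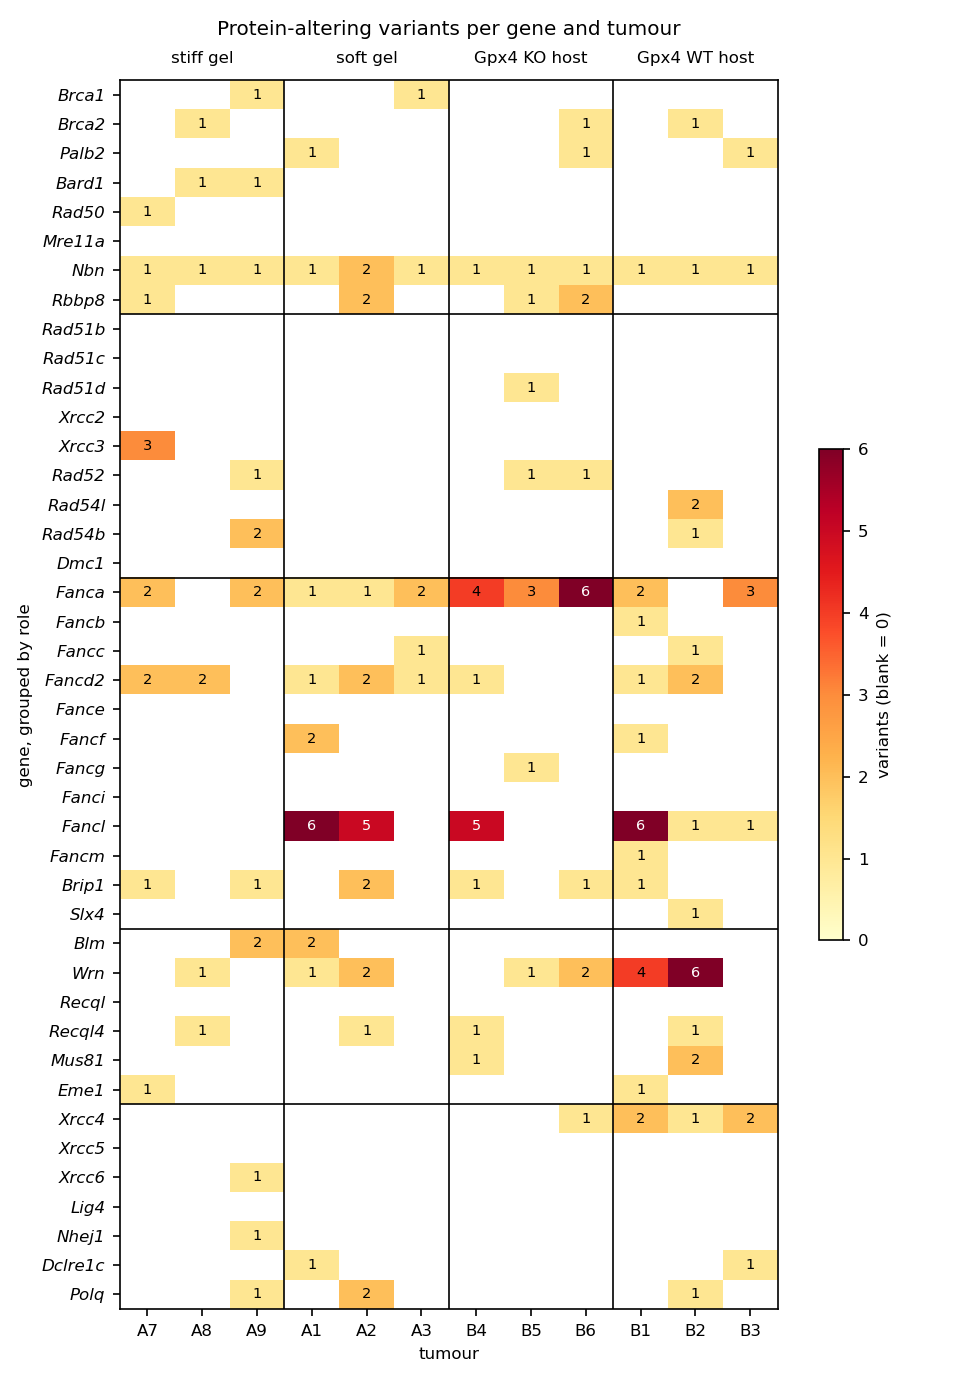
Protein-altering variants (HIGH plus MODERATE) of the 42 double-strand break repair genes (rows, grouped by role) in the 12 tumours (columns, by group); numbers and colour give the count and blank cells are 0. Nbn is filled in every tumour, counts of 4 or more appear only in Fanca, Fancl and Wrn, and 10 rows are blank.

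Over the 12 tumours the 42 genes held 164 protein-altering variants, of which 52 were HIGH (31.7%, against 27.2% over all genes). Frameshifts made up 40 of these HIGH variants (76.9%, against 71.3% over all genes), beside 6 splice donor, 5 stop gained and 1 splice acceptor variant. HIGH variants were listed in 15 of the 42 genes (35.7%), against 31.0% of all genes. The genes had 122 missense variants per 100 synonymous ones, against 128 over all genes. These shares are descriptions with no test and no adjustment for gene length.

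Among the recombination mediators and end-processing genes, Nbn, the subunit that recruits the ATM kinase to breaks, had 1 missense variant in each of the 12 tumours. Soft tumour A2 alone had a second protein-altering variant in Nbn, a splice acceptor change. Rbbp8, which starts the trimming of broken ends, had 1, 0 and 0 protein-altering variants in stiff tumours A7, A8 and A9, against 0, 2 and 0 in soft tumours A1, A2 and A3. It had 0, 1 and 2 in KO host tumours B4, B5 and B6, against 0 in each WT host tumour. In both A2 and B6 the pair was a frameshift and a splice donor variant, and A7 had a splice donor variant. Brca1 had 1 missense variant in A9 and 1 frameshift in A3, and Brca2 had 1 missense variant in A8, 1 frameshift in B6 and 1 missense variant in B2. Palb2, which joins BRCA1 to BRCA2, had 1 missense variant each in A1 and B6 and 1 frameshift in B3. Bard1, the partner of BRCA1, had 1 missense variant in A8 and 1 stop gained in A9, and Rad50 1 missense variant in A7.

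The recombination accessory genes held 12 protein-altering variants in 9 genes. Their sum was 3, 0 and 3 in stiff tumours, against 0 in each soft tumour, and 0, 2 and 1 in KO host tumours, against 0, 3 and 0 in WT host tumours. All 3 variants of A7 lay in Xrcc3, a gene of homologous recombination, and were 2 missense variants and 1 in-frame insertion. Rad54b, a motor protein that moves along DNA during recombination, had 2 missense variants in A9 and 1 in B2, and its relative Rad54l had 2 frameshifts in B2. Rad52, which anneals single strands, had 1 missense variant in A9, 1 frameshift in B5 and 1 missense variant in B6. Rad51d had 1 missense variant in B5.

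The 12 Fanconi genes held 78 of the 164 protein-altering variants and 32 of the 52 HIGH ones. Their sum was 5, 2 and 3 in stiff tumours, against 10, 10 and 4 in soft tumours. In the host experiment it was 11, 4 and 7 in KO host tumours, against 13, 5 and 4 in WT host tumours. Stiff and soft tumours overlapped, since A7 had more than A3, and so did KO and WT host tumours.

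Fancl, the ubiquitin ligase of the Fanconi core complex, had no protein-altering variant in the stiff tumours, against 6, 5 and 0 in soft tumours A1, A2 and A3. It had 5, 0 and 0 in KO host tumours B4, B5 and B6, against 6, 1 and 1 in WT host tumours B1, B2 and B3. The 6 variants of A1 were 5 missense variants and 1 frameshift, and A2 and B4 each had 4 missense variants and 1 frameshift, on the same pair of transcripts. B1 differed in kind, with 5 frameshifts and 1 in-frame deletion and no missense variant. The single missense variants of B2 and B3 lay on a transcript on which A2, B1 and B4 had no protein-altering variant. Across the tumours Fancl had 15 missense variants and 1 synonymous variant, which was in A7. The tables hold no positions, so whether tumours share a variant was not tested.

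Fanca, a subunit of the core complex, had 2, 0 and 2 protein-altering variants in stiff tumours, against 1, 1 and 2 in soft tumours. It had 4, 3 and 6 in KO host tumours, against 2, 0 and 3 in WT host tumours. The KO host tumours were high, but the lowest of them, B5, equalled the highest WT host tumour, B3. Stop gained variants were listed in A3, B4 and B6, splice donor variants in B1 and B3, and a frameshift in A7. Fanca had 20 missense and 9 synonymous variants over the 12 tumours.

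Frameshifts recurred in 2 further Fanconi genes. Fancd2, the protein that the core complex marks with ubiquitin, had 2, 2 and 0 protein-altering variants in stiff tumours, against 1, 2 and 1 in soft tumours. It had 1, 0 and 0 in KO host tumours, against 1, 2 and 0 in WT host tumours. All but 1 of these 12 were frameshifts, the exception being a missense variant in B2. Brip1, a helicase that binds BRCA1, had 7 variants, all frameshifts: 1, 0 and 1 in stiff tumours, against 0, 2 and 0 in soft tumours, and 1, 0 and 1 in KO host tumours, against 1, 0 and 0 in WT host tumours. Neither gene had a synonymous variant in any tumour. Fancf, another core subunit, had 2 missense variants in A1 and 1 in B1, and Fancc, Fancb, Fancg, Fancm and Slx4 had at most 1 in a tumour.

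**Figure D2:**
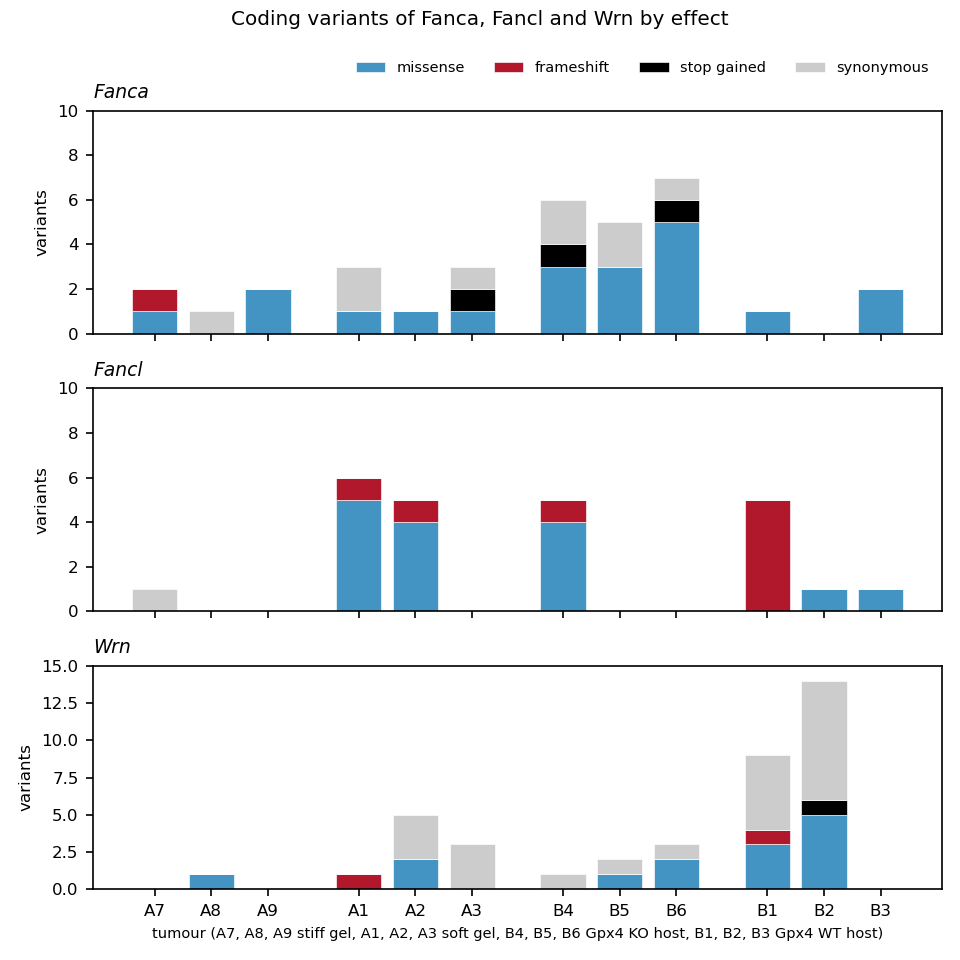
Coding variants of Fanca, Fancl and Wrn (vertical axis, count) in each tumour (horizontal axis), split into missense, frameshift, stop gained and synonymous; splice donor variants of Fanca in B1 and B3, the in-frame deletion of Fancl in B1 and splice region variants are not drawn. Fancl bars reach 5 or 6 in A1, A2, B4 and B1, with 1 frameshift beside missense variants in the first 3 of these and frameshifts alone in B1, while the Wrn bars of B1 and B2 are more synonymous than missense.

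Among the helicases and nucleases, Wrn, the RecQ helicase lost in Werner syndrome, had 0, 1 and 0 protein-altering variants in stiff tumours, against 1, 2 and 0 in soft tumours. It had 0, 1 and 2 in KO host tumours, against 4, 6 and 0 in WT host tumours. WT host tumours B1 and B2 were the highest of the 12, and B3 of the same group was at 0. Unlike Fancl, Wrn had more synonymous than missense variants, 22 against 14, with 5 synonymous variants in B1 and 8 in B2. Blm, the helicase lost in Bloom syndrome, had 2 missense variants in each of A9 and A1. Mus81, which cuts joined DNA molecules together with EME1, had a frameshift in each of B4 and B2 and a missense variant in B2. Recql4 had 1 missense variant in each of A8, A2, B4 and B2, and Eme1 had 1 in A7 and 1 in B1.

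End joining genes held 14 protein-altering variants. Their sum was 0, 0 and 3 in stiff tumours, against 1, 2 and 0 in soft tumours. It was 0, 0 and 1 in KO host tumours, against 2, 2 and 3 in WT host tumours, so the host groups did not overlap in this sum. The sums of the other roles overlapped between them. No single end joining gene separated the host groups, against 1.06% of all genes with every KO host tumour lower. The sum itself was not tested. Most of the difference in the sum came from Xrcc4, the partner of the ligase LIG4. Xrcc4 had 0, 0 and 1 missense variants in KO host tumours, against 2, 1 and 2 in WT host tumours, and no protein-altering variant in any of the 6 gel tumours. The 3 variants of A9 were 1 missense variant each in Xrcc6, which codes for the other Ku subunit, in Nhej1, which bridges the ends, and in Polq. Polq, the polymerase of microhomology-mediated joining, also had a missense variant and a frameshift in A2 and a splice donor variant in B2. Dclre1c, the nuclease Artemis, had 1 protein-altering variant in each of A1 and B3.

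**Figure D3:**
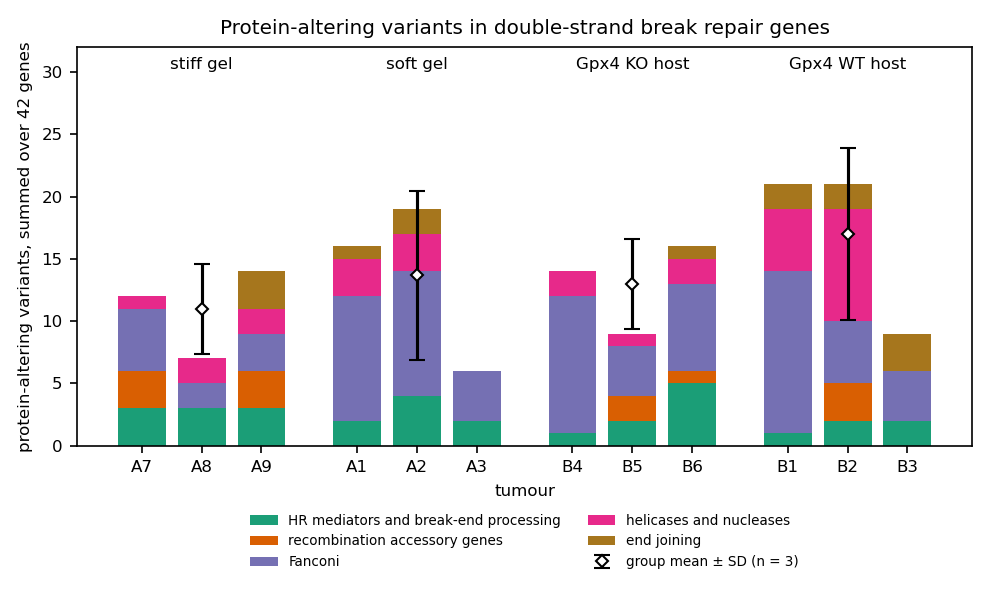
Protein-altering variants summed over the 42 genes (vertical axis) in each tumour (horizontal axis), stacked by role, with the group mean ± SD (diamond and bar, n = 3). Group means are 11 (stiff), 13.7 (soft), 13 (KO host) and 17 (WT host), and the error bars of both pairs overlap.

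The question in the gel experiment was whether tumours in the stiff matrix carried more or other variants in these genes. The 42 genes together had 12, 7 and 14 protein-altering variants in stiff tumours, against 16, 19 and 6 in soft tumours. The means were 11 ± 3.61 in stiff and 13.7 ± 6.81 in soft tumours (SD, n = 3 each), a difference of -2.67, within the spread of either group. Without Fancl they were 11 in stiff and 10 in soft tumours, a difference of 1, so the direction of the summed count was set by Fancl in A1 and A2. Per 1000 protein-altering variants of the tumour, the genes had 1.15 in stiff and 1.27 in soft tumours. By mean count 9 genes were higher in stiff tumours, 9 lower and 24 equal. For no member did stiff and soft tumours fail to overlap in protein-altering count, while among all genes this held for 0.24% with every stiff tumour higher and 0.545% with every stiff tumour lower.

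By edgeR's quasi-likelihood test with Benjamini-Hochberg adjustment, 0 of 4311 tested genes passed an adjusted p of 0.05 between stiff and soft tumours (0% called). The test covered 10 members, those with at least 3 protein-altering variants in the 6 tumours, and none passed. At an unadjusted p of 0.05 there were 106 genes, 0.742% of the tested genes higher and 1.72% lower, and no member among them. DESeq2 called 0 genes as well, with 7 at an unadjusted p of 0.05. Fancl, absent from stiff tumours and present in 2 of 3 soft tumours, had an unadjusted p of 0.127 and an adjusted p of 1 with edgeR. Without soft tumour A3, in which Fancl was at 0, the unadjusted p was 0.00753 and the adjusted p was 1. Leaving out A3 removes the soft tumour that went against the difference. Without any other single tumour, the smallest unadjusted edgeR p of a member was between 0.179 and 0.313. For Wrn the log2 fold change was -1.30 ± 1.33 (approximate SE, adjusted p = 1 with edgeR).

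The host experiment asked the same of the loss of Gpx4 in myeloid cells. The 42 genes had 14, 9 and 16 protein-altering variants in KO host tumours, against 21, 21 and 9 in WT host tumours. The means were 13 ± 3.61 in KO host and 17 ± 6.93 in WT host tumours (SD, n = 3 each), a difference of -4, within the spread of WT host tumours. Per 1000 protein-altering variants of the tumour the rates were 1.15 in KO host and 1.16 in WT host tumours. By mean count 6 genes were higher in KO host tumours, 15 lower and 21 equal, beside 2989 higher, 5029 lower and 13274 equal among all 21292 genes. For no member did the groups fail to overlap, against 0.183% of all genes with every KO host tumour higher and 1.06% with every KO host tumour lower.

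Between KO host and WT host tumours edgeR called 0 of 5308 tested genes (0% called), 9 of them members. At an unadjusted p of 0.05 there were 199 genes, 0.49% of the tested genes higher and 3.26% lower, and no member. DESeq2 called 0 genes, with 28 at an unadjusted p of 0.05. Fanca had a log2 fold change of 1.32 ± 0.78 and Wrn of -1.62 ± 1.29 (approximate SE, adjusted p = 1 with edgeR for both). For Xrcc4 it was -1.97 ± 0.89, with an unadjusted p of 0.088 and an adjusted p of 1 with edgeR. Rbbp8, present in KO host tumours B5 and B6 and in no WT host tumour, had an unadjusted edgeR p of 0.142 and an adjusted p of 1. Fancl at -0.64 ± 1.47 was lower in KO host tumours only through WT host tumour B1. Without B1 its log2 fold change was 0.67.

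The gel and host experiments differ in the gel and in the hosts, and possibly in the sequencing run. These differences cannot be told apart. The 42 genes averaged 12.3 ± 5.09 protein-altering variants in gel tumours and 15 ± 5.40 in host tumours (SD, n = 6 each), a difference of -2.67, within the spread of either group. Per 1000 protein-altering variants of the tumour the direction turned, with 1.21 ± 0.474 in gel and 1.16 ± 0.266 in host tumours. It also turned without Fancl, Fanca and Wrn, where the difference in the summed count was 0.833. By mean count 13 genes were higher in gel tumours, 14 lower and 15 equal. No member separated the experiments completely, against 0% of all genes with every gel tumour higher and 0.0658% with every gel tumour lower. Of 6829 genes tested with edgeR 0 were called (0%), 18 of those tested being members. At an unadjusted p of 0.05 there were 413 genes, 0.674% of the tested genes higher in gel tumours and 5.37% lower, and 1 of the 18 members, Xrcc4. DESeq2 called 0 genes, with 105 at an unadjusted p of 0.05.

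Xrcc4 had no protein-altering variant in the 6 gel tumours, against 0, 0, 1, 2, 1 and 2 in host tumours B4, B5, B6, B1, B2 and B3. Its unadjusted p was 0.0222 and its adjusted p 0.648 with edgeR, so the difference did not pass. Without KO host tumour B6 no member had an unadjusted p below 0.05, the smallest being 0.138. Fanca averaged 1.33 ± 0.816 in gel and 3 ± 2 in host tumours (log2 fold change -0.95 ± 0.60, approximate SE, adjusted p = 0.677 with edgeR). Fancd2 went the other way, 1.33 ± 0.816 in gel and 0.667 ± 0.816 in host tumours (log2 fold change 1.02 ± 0.78, adjusted p = 0.75). Wrn averaged 0.667 ± 0.816 in gel and 2.17 ± 2.40 in host tumours (log2 fold change -1.46 ± 1.02, adjusted p = 0.718). Blm (4 missense variants in gel tumours, none in host tumours) had an adjusted p of 0.652 and Xrcc3 one of 1.

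Around 3 of the genes, those with at least 5 protein-altering variants in a tumour, the neighbouring protein-coding genes were read up to 3 places to either side. Gm3985, beside Wrn, was not listed. Of the neighbours of Wrn, Tex15 and Purg had the most protein-altering variants. Tex15, a gene needed for meiotic break repair in mice and placed 2 genes away, had 2, 3 and 1 protein-altering variants in stiff tumours, against 12, 13 and 0 in soft tumours. It had 2, 2 and 17 in KO host tumours, against 19, 18 and 10 in WT host tumours. Purg, the direct neighbour, had 0, 4 and 0 in stiff tumours, against 0, 5 and 2 in soft tumours, and 0, 0 and 5 in KO host tumours, against 5, 4 and 1 in WT host tumours. Tumours B1, B2, A2 and B6, which had the most Wrn variants, were also the 4 highest for Tex15. Purg was at 5 in A2, B6 and B1 and at 4 in B2, with A8 also at 4. In protein-altering counts Fut10, Ppp2cb and Nrg1 were not highest in these 4 tumours. Fut10 had variants in B4 (2) and B2 (4) alone, Ppp2cb had 5 in B1 and none elsewhere, and Nrg1 had at most 3 in a tumour. In MODIFIER counts Nrg1 was highest in B2 (3639), B1 (2228), B6 (1825) and A2 (1490), the 4 tumours highest for Wrn. Purg and Tex15 were highest in the same 4 tumours, while Fut10 and Ppp2cb were not. Whether the genes vary together was not tested. The 6 neighbours of Fancl, Rel, Papolg, Bcl11a, Vrk2, Ccdc85a and Efemp1 had at most 2 protein-altering variants in any tumour, and at most 1 in A1, A2, B4 and B1, where Fancl had 5 or 6. Beside Fanca, Zfp276 had 7, 0 and 2 in KO host tumours, against 0, 1 and 2 in WT host tumours. Spire2 had 4, 1 and 4 in KO host tumours, against 2, 2 and 1 in WT host tumours. Vps9d1 went the other way by mean, with 0, 0 and 4 in KO host tumours, against 4, 2 and 3 in WT host tumours.

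**Figure D4:**
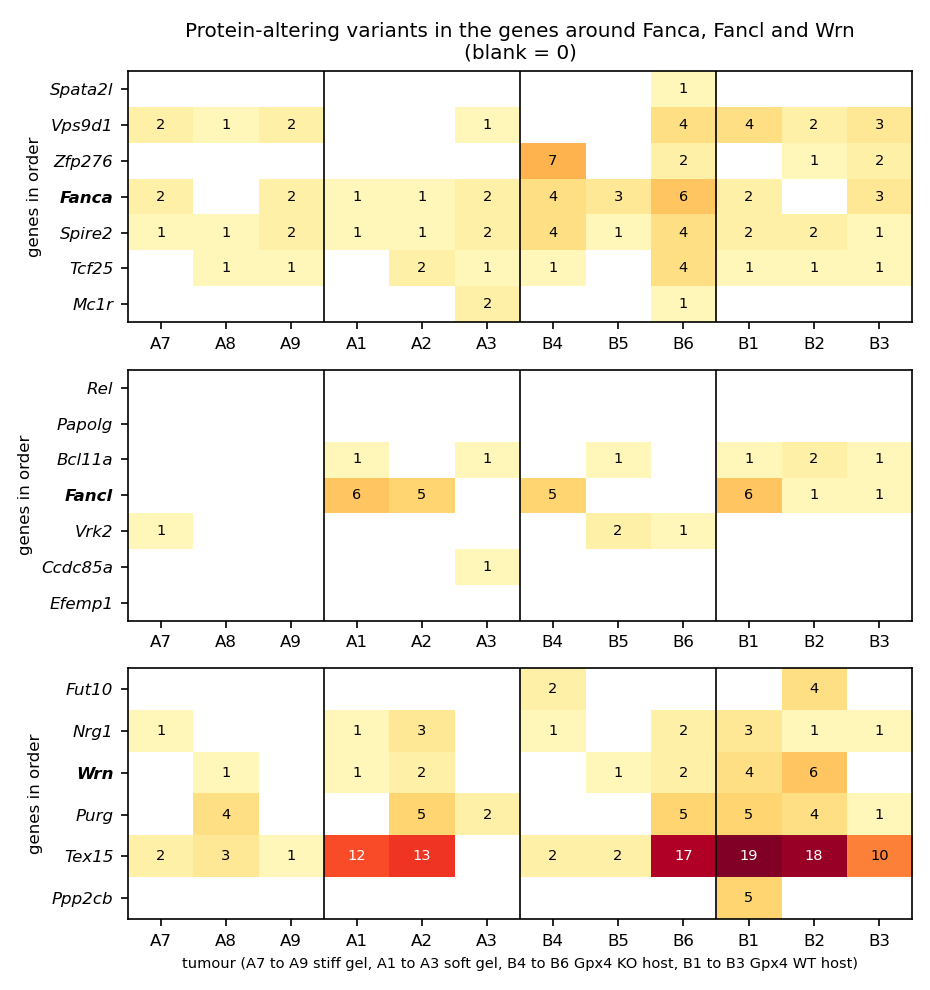
Protein-altering variants (numbers and colour, blank = 0) of Fanca, Fancl and Wrn and of the protein-coding genes up to 3 places to either side (rows, in gene order) in the 12 tumours (columns). Tex15, next but 1 to Wrn, reaches 12 to 19 in A1, A2, B6, B1 and B2, while the rows around Fancl hold at most 2 in any cell.

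MODIFIER variants are far more numerous than coding ones and were tested after the coding results were known. The 42 genes held 9226 of them, 8065 intronic, and every one of the 42 had at least 1. Of the members, 2 had more in every stiff than in every soft tumour (Fancd2 and Fancm, background 1.59%) and 4 had fewer (Fancl, Blm, Wrn and Eme1, background 7.45%). In KO host tumours none had more than in every WT host tumour (background 0.916%), and 6 had fewer (Fancf, Fancl, Eme1, Xrcc4, Nhej1 and Polq, background 6.2%). The totals lean the same way, with 12178 of 21292 genes lower by mean in stiff than in soft tumours and 13981 lower in KO host than in WT host tumours.

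With edgeR on MODIFIER counts 0 of 19505 genes passed between stiff and soft tumours (0%). At an unadjusted p of 0.05 there were 1596 of the 19505 genes, among them 6 of the 40 members tested. Between KO host and WT host tumours 0 of 19312 passed (0%). There 891 of the 19312 genes were at an unadjusted p of 0.05, among them 4 of the 41 members tested. The members were not tested as a set. DESeq2 was not run on these counts. In unscaled MODIFIER counts Fancl separated the groups in each experiment. It had 72, 73 and 65 MODIFIER variants in stiff tumours, against 101, 96 and 83 in soft tumours (adjusted p = 0.521 with edgeR). It had 94, 81 and 109 in KO host tumours, against 151, 128 and 124 in WT host tumours, where its unadjusted edgeR p was above 0.05. Total MODIFIER counts were also lower in every stiff tumour (335381 to 379256) than in every soft tumour (381204 to 452463). They ran from 334408 to 633100 in KO host tumours, against 511609 to 695281 in WT host tumours. Scaled to each tumour's total, Fancl had an unadjusted edgeR p above 0.05 between stiff and soft tumours and between KO and WT host tumours. Eme1 had none in stiff tumours, against 3, 5 and 3 in soft tumours (adjusted p = 0.425), and 2, 3 and 2 in KO host tumours, against 11, 5 and 8 in WT host tumours (adjusted p = 0.858).

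Between gel and host tumours edgeR called 1156 of 20737 genes (5.57%) on MODIFIER counts, 0.299% of the tested genes higher in gel tumours and 5.28% lower. Of 41 members tested, 4 were lower in gel tumours and none was higher. Wrn had 70, 38, 35, 86, 164 and 76 MODIFIER variants in gel tumours A7, A8, A9, A1, A2 and A3, against 107, 75, 285, 266, 335 and 161 in host tumours B4, B5, B6, B1, B2 and B3. It averaged 78.2 ± 46.9 in gel and 205 ± 105 in host tumours (SD, n = 6 each), with a log2 fold change of -1.46 ± 0.33 (approximate SE, adjusted p = 0.0232 with edgeR). Its groups overlapped, since A1, A2 and A3 lay above B5. Like Wrn, its neighbours Nrg1, Purg and Tex15 had their highest unscaled MODIFIER counts in B2, B1, B6 and A2.

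In unscaled counts Xrcc4 was the member whose 6 gel tumours all lay below the 6 host tumours, which was true of 0.629% of all genes. No member had all gel tumours above all host tumours (background 0.0986%). It had 94, 93, 75, 86, 72 and 93 MODIFIER variants in gel tumours, against 122, 95, 153, 232, 171 and 183 in host tumours. Its log2 fold change was -0.86 ± 0.16 (adjusted p = 0.0142 with edgeR). Fancc, a core complex subunit, averaged 49.7 ± 6.86 in gel and 78 ± 20.3 in host tumours (log2 fold change -0.63 ± 0.17, adjusted p = 0.0473). Eme1 averaged 1.83 ± 2.14 in gel and 5.17 ± 3.66 in host tumours (adjusted p = 0.0294).

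Host tumours had more MODIFIER variants in total, and the same fit scaled to each tumour's total called 724 genes (3.49%), 1.26% of the tested genes higher in gel tumours and 2.23% lower. The median log2 fold change of all tested genes was -0.20 before scaling and 0.23 after it. Of the 4 members only Wrn passed the scaled fit, at -0.97 ± 0.21 (adjusted p = 0.0139). Per 100000 MODIFIER variants Wrn averaged 19.5 ± 9.51 in gel and 36.5 ± 13.0 in host tumours (SD, n = 6 each). Xrcc4 averaged 22.4 ± 3.50 in gel and 29.9 ± 4.11 in host tumours (scaled adjusted p = 0.0577). On this scale its gel and host tumours overlapped, since A7 (24.8) and A8 (26.1) lay above B6 (24.2). The calls also turned on single tumours: leaving out 1 tumour at a time, between 0 and 8 members passed, none of them without A9 and 8 without B5. Wrn missed the threshold without A8, A9, A1, A3, B1 or B2, and Xrcc4 without A9. Eme1 missed it without A8, A9, A1, A3, B6 or B1. Fancc missed it whichever tumour was left out, A2 and B5 excepted.

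**Figure D5:**
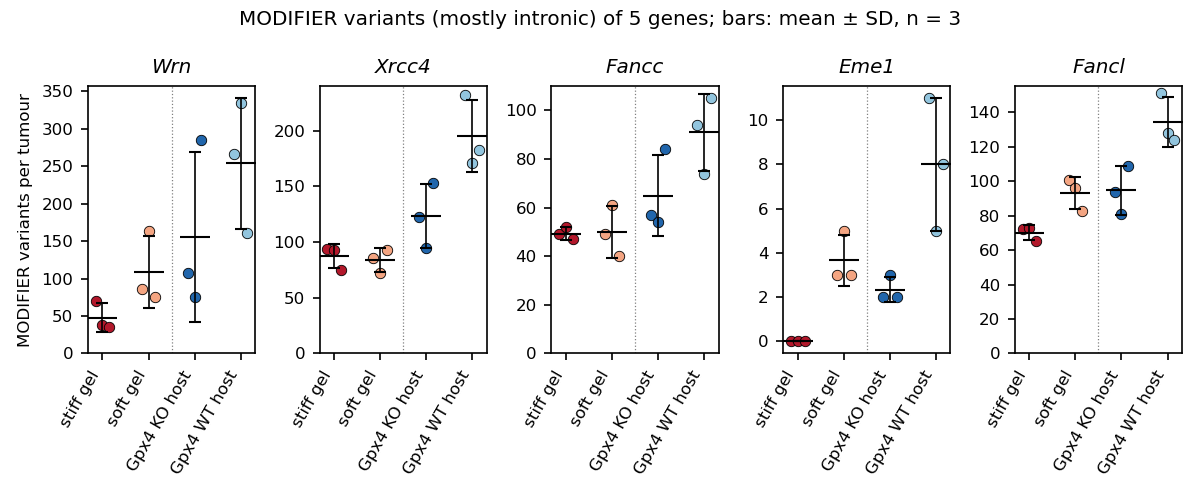
MODIFIER variants (vertical axis, count per tumour, a scale of its own for each gene) of Wrn, Xrcc4, Fancc, Eme1 and Fancl in the 4 groups; points are tumours and bars the mean ± SD (n = 3), with gel groups left of the dotted line and host groups right of it. Stiff tumours lie at 0 for Eme1, and for Xrcc4 all gel tumours lie at 94 or below while host tumours start at 95.

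Other genes of double-strand break repair were read as a list of 79 names, of which 74 were listed in the tables. A protein-altering variant was listed for 43 of the 74 (58.1%), close to the 55.5% of all genes, and 6 had one in all 12 tumours (8.11%). Trp53bp1, which shields ends from trimming, had 98 over the 12 tumours and between 7 and 10 in each. Ints3 had 47, Abraxas1, which tethers a BRCA1 complex to breaks, 44, and Prkdc, the end joining kinase, 28. None of the 74 differed without overlap between stiff and soft tumours. Abraxas1 and Hfm1 (Hfm1 named after its values were seen) were lower in every KO host tumour than in every WT host tumour (background 1.06%): Abraxas1 had 1, 3 and 2 in KO host tumours, against 4, 4 and 5 in WT host tumours, and Hfm1, a meiotic helicase, had 0 in each KO host tumour, against 1, 3 and 2 in WT host tumours. None passed edgeR's test, which called 0 genes in these comparisons.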

How the data were processed

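Exome variants of 12 mouse mammary tumours were analysed; 2 tail samples were not analysed here. The submitters' processing notes name BWA 2.2.1, SAMtools 1.19.2 and GATK. The sources used here give neither the caller's settings nor whether tails served as matched normals. The authors deposited whole-number counts of variants per transcript, made with snpEff per the file headers, by impact and effect. Rows with a blank biotype, 9.23% to 9.96% of a table, were left out. Overlapping genes can share a variant. Symbols (96.3% matched to RefSeq, GRCm38.p6) served for names and neighbour order only. The test, for genes summing to at least 3 over the fitted tumours, was that of edgeR 4.0.16 (quasi-likelihood, equal library sizes, Benjamini-Hochberg). DESeq2 1.42.0 served as an alternative. The edgeR fit was first run on simulated data, with changes placed only in genes of higher mean protein-altering count than any member had. Those runs therefore do not show whether changes at the members' counts can be found. The approximate SE divides the log2 fold change by the root of F; fold changes of genes at 0 in a group are not printed. Members and lists were chosen with earlier results of these data known. Genes named by rule had protein-altering variants in at least 6 tumours, HIGH ones in at least 2, or the 3 largest differences per direction and comparison; others were named to account for each member.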

Additional observations from a re-analysis of the deposited data

Results flagged for a closer look

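In sets of 6 tumours (gel or host), the summed counts of the 42 genes and of each role were searched for a tumour set apart. The rule was a gap past Dixon's critical value, and 6 of 36 sets had 1. Dixon's rule assumes continuous values, while the flagged sums were small counts, for which a single 1 beside counts of 0 always passes. How often chance flags such sums was not tested. Among host tumours B6 had 5 protein-altering variants in the recombination mediators and end-processing genes, with the next at 2. B6 had 3 HIGH variants in the same genes, with the next at 1. Among gel tumours A2 had 3 HIGH variants in these genes, with the next at 1. A1 was the only gel tumour with a HIGH variant, 1, in the helicases and nucleases. A2 was the only gel tumour with a HIGH variant in end joining genes, 1, and B2 the only host tumour with such a variant, also 1.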

How the results depend on the processing

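On protein-altering counts 0 genes were called in the stiff and soft and in the KO and WT host comparisons under every alternative run, and between gel and host tumours 0 to 3 when leaving out 1 tumour, the 3 arising without soft tumour A2 and holding no member. The difference in the summed count of the 42 genes ranged from -6.5 to 0 (stiff minus soft), -8 to -2 (KO minus WT host) and -4 to -1.4 (gel minus host) when leaving out 1 tumour, and stayed within 1 SD of the printed value under the other impact classes, transcripts, biotypes and scaling; between gel and host tumours scaling to the total turned it to 0.596. Fancl between KO host and WT host tumours ranged from -4.48 to 0.67 (log2), turning over without B1; the low end, without B4, leaves KO host tumours at 0 and depends on the prior count. On MODIFIER counts, tested after seeing the data, leaving out 1 tumour gave 0 to 4 calls (stiff and soft), 0 (KO and WT host) and 114 to 2616 (gel and host); scaling to the total gave 35 and TMM 26 between host groups, scaling gave 724 between gel and host, and leaving out A9 and B5 gave 1809. The causes were not tested. Of the groups compared only soft and WT host tumours share replicate numbers, and same-numbered tumours did not deviate together (correlations over genes of -0.0237 to 0.0377 on both kinds of count). For these 6 tumours alone, a subset chosen after seeing the data, edgeR called 0 genes on protein-altering counts with and without the replicate block, and on MODIFIER counts 0 with the block and 140 without it. The depth reached is unknown throughout, and an exact permutation of 3 against 3 cannot go below 0.1.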

Other observations

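LOW variants of 2 genes were listed in every tumour, as was a missense variant of Nbn. Without positions, sharing of the same variant between tumours was not tested. Xrcc4 had 1 LOW variant in each of the 12 tumours, listed as a splice region change in each of them. Fancc had 1 synonymous variant in each tumour except B5, which had 2. Wrn had 3, 3, 5 and 8 synonymous variants in A2, A3, B1 and B2, against at most 1 in each of the other tumours. Eme1 had synonymous variants in host tumours only, with 1, 1 and 3 in KO host tumours B4, B5 and B6, against 2, 0 and 0 in WT host tumours B1, B2 and B3, and none in the 6 gel tumours. Whether these differences exceed the spread between tumours was not tested.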
